A study of Mus musculus with 40 samples.

Results

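This account covers the mammary gland of mice fed conjugated linoleic acid (CLA) for 108 h against that of mice fed the control diet for the same time. The members are the 10 libraries whose labels name these groups, 5 CLA and 5 control, out of 40 libraries in the series, and each library is from 1 mouse. All 10 mice were Balb/cJ with the ovaries removed at 21 days of age, and all had 7 days of recovery before the diets began, so the controls lacked ovarian hormones too. Control mice ate a defined diet based on AIN 93G, and CLA mice ate that diet with 2.7% fat as CLA. Neither group was given estrogen. The RNA came from part of 1 number 4 inguinal gland, from near the teat up to where the lymph node had been taken out. That tissue is a fat pad that holds ducts, vessels, nerve and immune cells, so a change in the number of cells of a type and a change in RNA per cell cannot be told apart. The labels used here name no CLA isomers and give no body weights or gland histology.

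CLA is a set of isomers of linoleic acid in which the double bonds are conjugated. In mice, CLA is known for loss of body fat, and its trans-10,cis-12 isomer for inflammation of white fat. Growth of mammary ducts through the fat pad normally needs ovarian estrogen. The series title names growth of the gland that does not depend on estrogen, and the comparison with controls at 108 h gives the RNA of the whole tissue under that condition.

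Total counts, rounded, ran from 27365000 to 34832000 per control library and from 25977000 to 35659000 per CLA library. Mitochondrial genes took 7.25 to 8.64% of counts in controls and 4.76 to 6.73% with CLA, with no overlap. Genes of skin and hair had a list mean above 1.5 log2 CPM (counts scaled to library size) in 3 control libraries (4.37, 5.25 and 1.95) and in no CLA library (−2.06 to 0.00). Skeletal muscle genes stood at 3.35 and 2.71 in 2 of those 3 controls and at −1.31 to −0.74 with CLA. The animal numbers fall into a run of 26 to 34 (2 control and 3 CLA mice) and a run of 114 to 118 (3 control and 2 CLA mice). The labels do not say what the runs stand for. Leaving out the libraries above 1.5 in skin and hair genes kept only control replicates 3 and 4, both of the run 114 to 118, and all 5 CLA libraries. Where a call was lost in that setting, skin signal, fewer controls and the run cannot be told apart.

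Of 17248 genes tested, 8261 changed at an adjusted p under 0.05 (47.9%), with 4293 higher (24.9%) and 3968 lower (23%) with CLA. In 3093 genes (17.9%) all 5 CLA libraries were above all 5 controls, and in 2453 (14.2%) all were below. Most changes were small: the median size among called genes was 0.51 on the log2 scale, 1040 genes at least doubled and 686 at least halved. On the authors' RPKM values, with 0.1 added and log2 taken, limma called 5228 genes higher and 2958 lower. The balance turned under other scalings of the counts: 3592 higher and 4907 lower with upper-quartile scaling, 4042 and 4297 with RLE scaling, and 4136 and 4414 by DESeq2. Counts of genes from any list are read against these shares of all genes. Fold changes are log2 CLA over control with ± SE, and CPM is not scaled by gene length.

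**Figure D1:**
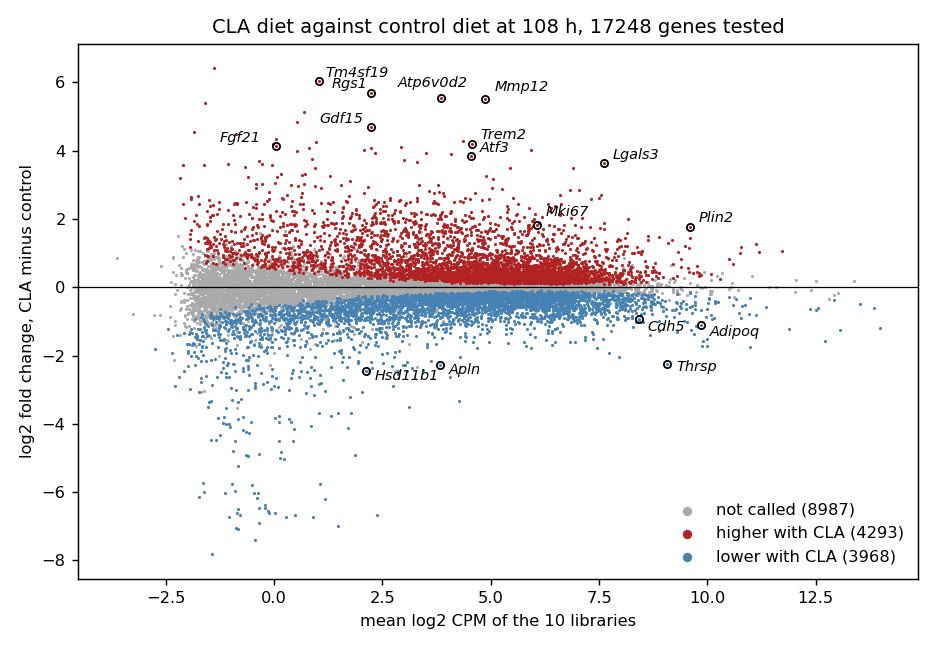
Log2 fold change (CLA minus control) of 17248 genes against their mean log2 CPM over the 10 libraries, with red for 4293 genes called higher, blue for 3968 called lower and grey for the rest. Circles mark some of the genes described, and the group of low genes below −4 holds hair and skin keratins such as Krt25 and Krt71.

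For the largest changes the naming rule took only called genes whose groups did not overlap, so neither trait is further support for them. The 12 largest rises by the naming rule were in Tm4sf19, Rgs1, Atp6v0d2, Mmp12, Gdf15, Il1rn, Trem2, Il7r, Tnip3, Adam8, St18 and Clec12a. Tm4sf19 encodes a membrane protein of the tetraspanin type (chromosome 16, 32400506 to 32408227, plus strand). It was at 0.119, 0.128, 0.0326, 0.940 and 0.144 CPM in the 5 controls and 17.9, 18.4, 19.5, 28.5 and 10.5 CPM in the 5 CLA libraries. The log2 fold change was 6.05 ± 0.53 (adjusted p = 5.52e-08). Rgs1, a brake on G protein signals of chemokine receptors, rose by 5.68 ± 0.58, and Gdf15, a stress hormone, by 4.70 ± 0.40.

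The 12 largest falls, taken under the same rule, mixed genes of fat metabolism with genes of skin. Hsd11b1, whose enzyme regenerates active glucocorticoid inside cells (chromosome 1, 193221634 to 193264075, minus strand), was at 11.1, 8.52, 10.3, 11.4 and 10.1 CPM in controls and 1.12, 2.0, 2.79, 1.22 and 2.19 with CLA. The gene fell by 2.45 ± 0.23. Apln, which encodes the peptide hormone apelin, was at 46.8, 22.3, 39.0, 22.8 and 32.0 CPM against 6.90, 5.04, 8.82, 4.41 and 8.05. Acsm3, an acyl-CoA synthetase gene of mitochondria, fell by 2.18 ± 0.17, the pantetheinase gene Vnn3 by 2.28 ± 0.21 and the fructose transporter gene Slc2a5 by 2.45 ± 0.61. Slc2a5 was not called within either run of animal numbers alone.

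Cdsn, Trpv3, Tgm3 and Trp63, all known from skin or hair, and Cpm were also among the 12. Without the libraries above 1.5 in skin and hair genes, Cdsn was at −1.83, Trpv3 at −0.98, Trp63 at −1.35 and Cpm at −0.78. Tgm3 lost its call within animals 114 to 118 (adjusted p = 0.0517). Dct, a pigment enzyme gene, was at −3.20 with all libraries and lost its call within animals 26 to 34 (−3.92, adjusted p = 0.0583).

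Macrophage genes were higher with CLA across surface receptors, lysosome and growth factor receptor. Of 14 macrophage identity genes tested, 12 rose and none fell, with a median log2 fold change of 1.40 against −0.01 over all genes. Without the libraries above 1.5 in skin and hair genes, 8 were called higher (median 1.36). The count was 11 within animals 26 to 34 and 9 within 114 to 118 (medians 1.42 and 1.47). Csf1r, the receptor for the growth factor that keeps macrophages alive, was at 138, 189, 233, 138 and 136 CPM in controls and 335, 324, 437, 392 and 318 with CLA. The CLA libraries were all above the controls, and Csf1r rose by 1.12 ± 0.19 (adjusted p = 0.000108). The ligand gene Csf1 rose by 0.55 ± 0.14, a call lost without the libraries above 1.5 in skin and hair genes (adjusted p = 0.076). Mpeg1, a pore-forming protein of phagocytes, rose by 2.85 ± 0.49, and Cd68, a lysosomal glycoprotein, by 2.85 ± 0.21. Cd163, a hemoglobin scavenger receptor of resident macrophages, was at 0.35 ± 0.19 and Mertk, a receptor for dying cells, at 0.21 ± 0.23, and neither passed the test.

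Genes of lipid-associated macrophages, the cells that gather where fat cells release lipid, had the highest median of the lists in the plot of list shares. Of 14, 12 rose, with a median of 2.57. Trem2, a lipid-sensing receptor (chromosome 17, 48346401 to 48354147, plus strand), was at 3.63, 5.14, 6.32, 9.28 and 4.10 CPM in controls and 95.8, 95.0, 101, 141 and 92.1 with CLA. Itgax, which encodes the integrin CD11c (chromosome 7, 128129547 to 128150657, plus strand), was at 3.93, 4.69, 3.68, 5.47 and 4.14 CPM against 58.4, 58.9, 73.2, 84.1 and 54.0. In both genes the lowest CLA library was above the highest control by a wide margin, and Itgax rose by 3.90 ± 0.22 (adjusted p = 3.41e-10). Lgals3, the lectin galectin-3, rose by 3.65 ± 0.27, Gpnmb by 3.49 ± 0.46 and the secreted protein gene Spp1 by 2.82 ± 0.60. The members not called were the fatty acid carriers Fabp5 (0.11 ± 0.12) and Cd36 (0.01 ± 0.09), both of which fat or endothelial cells also make.

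Myeloid lectin receptors rose in part. Of 13 C-type lectin genes, 8 rose and 1 fell. Clec12a, an inhibitory receptor of myeloid cells, rose by 3.92 ± 0.22 and Clec4a2 by 2.46 ± 0.18. The microbe sensors Clec4d (0.29 ± 0.93) and Clec4e (−0.34 ± 0.89) did not pass the test. The member that fell, Cd209a (−0.43 ± 0.15), a receptor of dendritic cells, lost its call without any 1 of control replicates 2 and 3 or CLA replicates 1 and 4.

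Among secreted signals, 7 of 21 chemokine ligand genes rose and none fell. Ccl9 rose by 2.58 ± 0.35, Ccl3 by 2.59 ± 0.58, Ccl6 by 2.07 ± 0.35, the neutrophil attractant Cxcl1 by 2.04 ± 0.49 and Cxcl16 by 1.01 ± 0.14. Ccl2, the main monocyte attractant, was at 1.72 ± 0.82 with an adjusted p of 0.0929. With only the 10 libraries compared in the fit, it was called at 1.73 (adjusted p = 0.00603). Without control replicate 5 it was called at 2.29 (adjusted p = 0.0466), and it was also called on RPKM values and within animals 26 to 34. Cxcl12 was at −0.10 ± 0.10. Within animals 26 to 34 the count was 11 and within 114 to 118 it was 5. Among chemokine receptor genes, Ccr2 (1.47 ± 0.29) and Cxcr4 (0.90 ± 0.24) rose and the decoy receptor gene Ackr3 fell (−0.32 ± 0.10). The calls of Cxcl1, Cxcr4 and Ackr3 were lost without the libraries above 1.5 in skin and hair genes.

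Cytokine genes that restrain inflammation were among those that rose. Il1rn, which encodes the antagonist of the interleukin-1 receptor (chromosome 2, 24336853 to 24351494, plus strand), was at 3.24, 6.48, 2.77, 6.72 and 5.18 CPM in controls and 91.8, 95.3, 83.2, 147 and 61.8 with CLA, a rise of 4.29 ± 0.49. Il1b itself was at −0.40 ± 0.46 and did not pass the test. Il10, an anti-inflammatory cytokine, was low throughout, at 0.327, 0.255, 0.195, 0.114 and 0.216 CPM in controls and 1.60, 0.643, 0.617, 1.08 and 0.961 with CLA. Its groups did not overlap, and it rose by 2.13 ± 0.48 (adjusted p = 0.00117). Tgfb1 rose by 1.0 ± 0.09, while Tnf (0.49 ± 0.29) and Il6 (0.62 ± 0.67) did not pass the test. Without control replicate 5, Tnf was called at 0.73 (adjusted p = 0.0447). In all, 8 of 17 rose and 1 fell. The receptor genes Il1r1 and Tnfrsf1b were also among the 8. Across 23 other ways of processing they were at 0.54 to 0.87 and at 1.10 to 1.27. The one that fell, Il1r2 (−0.44 ± 0.17), a decoy receptor, lost its call without any 1 of 7 libraries.

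All 6 tested subunits of the phagocyte NADPH oxidase, which makes superoxide, rose, with a median of 1.62. Of these, 4 were called without the libraries above 1.5 in skin and hair genes, and 4 within each run of animal numbers alone. Cyba, the small membrane subunit (chromosome 8, 122424776 to 122432930, minus strand), was at 7.05, 7.92, 9.74, 7.74 and 7.27 CPM in controls and 34.9, 32.6, 37.7, 45.9 and 27.9 with CLA, with no overlap and a rise of 2.17 ± 0.19. Complement genes went both ways. The C1q chains C1qa (0.59 ± 0.17), C1qb (0.83 ± 0.17) and C1qc (0.76 ± 0.17) and the receptors C3ar1 (2.45 ± 0.34) and C5ar1 (1.52 ± 0.24) rose. C3 (−0.42 ± 0.14), C2 (−0.65 ± 0.12) and Cfd (−1.75 ± 0.24), the last a product of fat cells, fell. The C3 call was lost without control replicate 5 or CLA replicate 1, and that of C1qa without the libraries above 1.5 in skin and hair genes (adjusted p = 0.0971).

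Genes for antigen presentation by class II rose in 8 of 8 cases, with a median of 1.39. H2-Ab1, a chain of the class II molecule (chromosome 17, 34257689 to 34269419, plus strand), was at 84.4, 90.2, 81.6, 67.3 and 68.2 CPM in controls and 199.6, 204, 205, 219 and 245 with CLA. Each CLA library was at least double the highest control, and the rise was 1.45 ± 0.15 (adjusted p = 2.34e-07). Ciita, the master switch of these genes, rose by 1.39 ± 0.27. Genes that interferon induces did not follow: 1 of 15 rose (Oas1a, 1.27 ± 0.50), and that call was lost without any 1 of 8 libraries. Within animals 26 to 34, 9 of 15 were called higher, with a median of 1.06, and within 114 to 118 none, with a median of −0.28.

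Of 6 neutrophil genes tested none rose, and Elane, the elastase gene, fell (−1.40 ± 0.35). Summed neutrophil markers were 11.3 to 32.2 CPM in controls and 22.2 to 49.7 with CLA. Of 10 T cell genes, Cd4 and Cd3e (1.16 ± 0.34) rose and Cd247 fell (−1.09 ± 0.24). Cd3e was not called on RPKM values (0.49, adjusted p = 0.205). Cd4 was at 1.52, 1.05, 1.73, 1.57 and 1.26 CPM in controls and 2.44, 3.54, 2.92, 3.32 and 3.38 with CLA, with no overlap and a rise of 1.13 ± 0.17, and macrophages can also carry CD4. Cd8a was at −0.12 ± 0.55.

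Of 8 B cell genes edgeR called 0, with 0 at an unadjusted p under 0.05, and DESeq2 called 0. Of 7 dendritic cell genes 2 rose and 2 fell (median −0.04). The growth factor receptor gene Flt3 (1.51 ± 0.20) and the transcription factor gene Batf3 (1.52 ± 0.18) rose, and Itgae (−0.57 ± 0.16) and Cd209a fell. Mast cell genes fell in 2 of 8 cases, Kit (−0.97 ± 0.22) and Cpa3 (−0.60 ± 0.16), a share of 25% against 23% of all genes. Of 6 natural killer genes 5 rose, with Eomes at 1.10 ± 0.39. That count ranged from 0 to 5 when single libraries were left out and was 0 without the libraries above 1.5 in skin and hair genes. Their summed level was 4.49 to 6.11 CPM in controls and 5.08 to 13.3 with CLA.

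**Figure D2:**
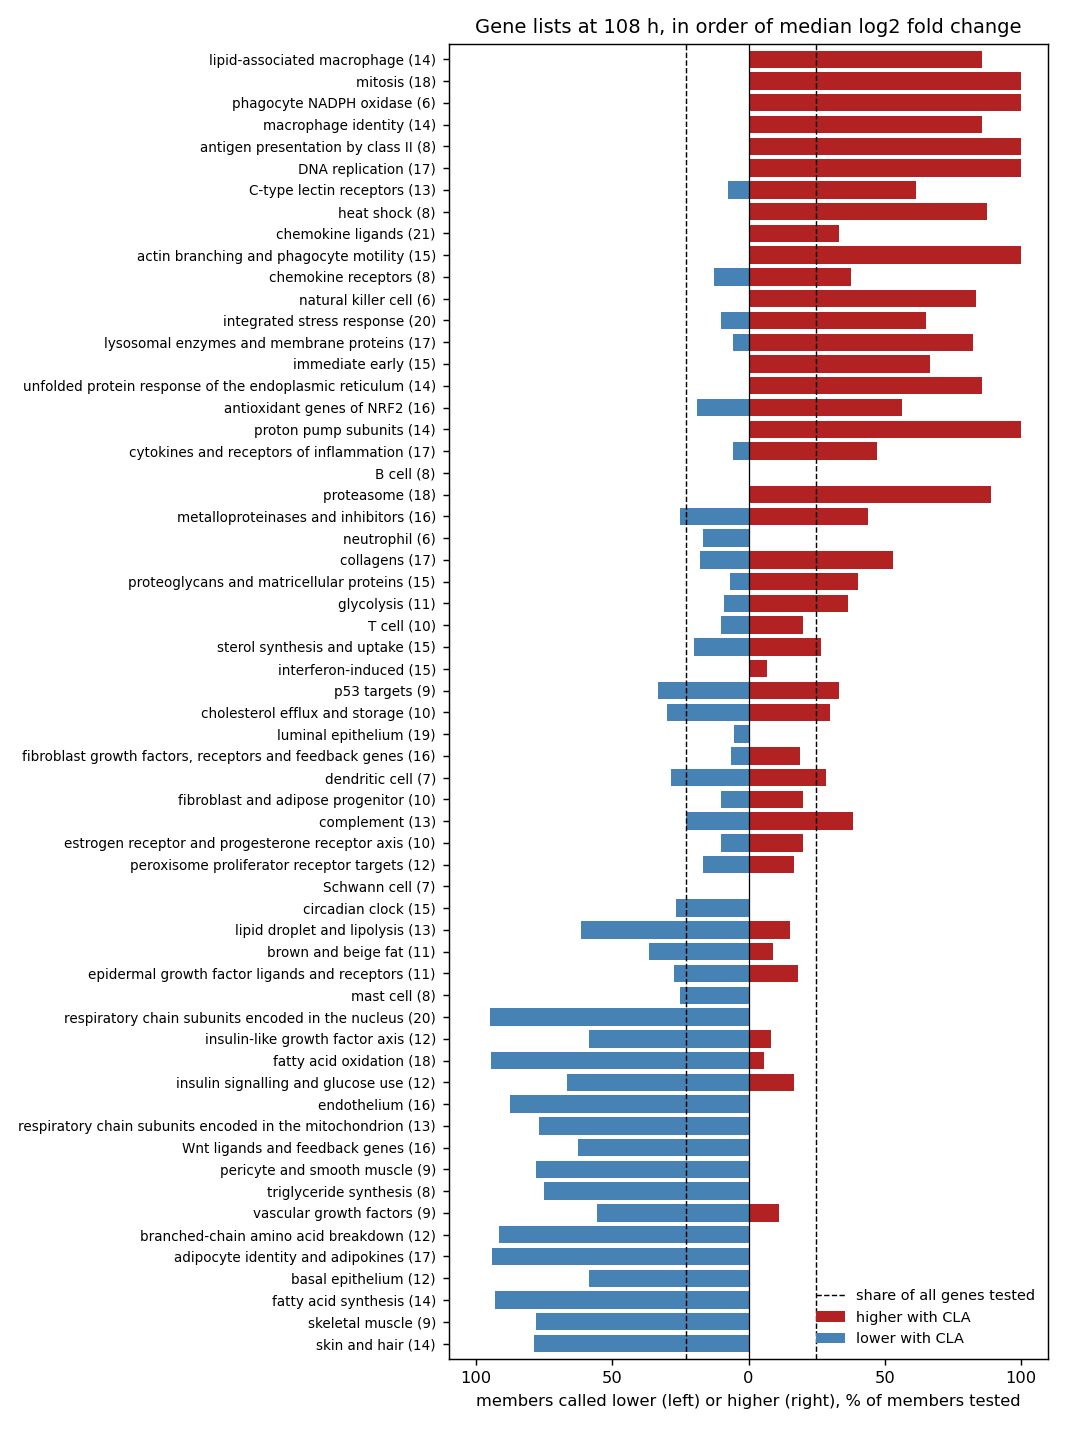
Share of the tested members of each gene list called higher (red, to the right) or lower (blue, to the left) with CLA, with the number tested in brackets for lists of at least 6, in order of median log2 fold change. Dashed lines mark the shares of all genes, 24.9% higher and 23% lower, and lists of macrophage, division and proton pump genes lie past the line on the right while fat cell, oxidation and endothelial lists lie past the line on the left.

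Genes of the lysosome, the digestive compartment that macrophages fill with engulfed material, rose broadly. Of 17 lysosomal genes, 14 rose (median 0.73) and 1 fell. Gusb, the beta-glucuronidase gene (chromosome 5, 129989011 to 130003049, minus strand), was at 66.3, 67.6, 81.8, 80.9 and 73.7 CPM in controls and 227, 242, 263, 348 and 192 with CLA, with no overlap, and rose by 1.78 ± 0.12. The protease genes Ctss, Ctsz and Ctsb rose by 2.63 ± 0.38, 1.22 ± 0.09 and 1.03 ± 0.10. The member that fell was Acp5 (−0.91 ± 0.08), the tartrate-resistant acid phosphatase.

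The proton pump that acidifies lysosomes rose as a whole, with 14 of 14 subunit and accessory genes higher and a median of 0.49. In all 14 the CLA libraries lay above every control. Atp6v1b2, a catalytic-ring subunit (chromosome 8, 69088646 to 69113711, plus strand), was at 106, 113, 106, 105 and 113 CPM in controls and 334, 309.7, 355, 480.1 and 307 with CLA. Controls differed by less than 10 CPM, and the rise was 1.72 ± 0.10 (adjusted p = 3.41e-10). Atp6v0a1 rose by 1.36 ± 0.08 and Atp6v1a by 1.06 ± 0.10, while Atp6v1e1 rose by 0.22 ± 0.05. Atp6v0d2, an isoform gene used by macrophages and osteoclasts, rose by 5.53 ± 0.44.

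The transcription factor TFEB is known to raise pump and lysosome genes through a short element called CLEAR. Of 10 pump genes with a RefSeq promoter, 1, Atp6v0b (0.61 ± 0.06), held CACGTGAC, searched on both strands in the 250 bases before the start. The match lies 30 bases before the start and is shown with the 45 bases before it and those up to the start, on the minus strand (chr4:117887330-117887412, GRCm38.p6), in capitals as read from the other strand.
Atp6v0b: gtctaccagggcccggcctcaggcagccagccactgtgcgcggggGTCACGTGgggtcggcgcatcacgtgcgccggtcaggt
The element was in 2.11% of all 27025 promoters. Of 422 tested genes that held it, 36.5% rose and 17.5% fell, against 26.5% and 23.3% of all 12257 tested genes with a promoter. A match of letters shows no binding, and no test was made of these shares.

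Actin and proteasome genes rose in nearly every tested member. All 15 of 15 genes for actin branching and phagocyte motility rose (median 0.98). Lcp1, the actin bundler of leukocytes (chromosome 14, 75131101 to 75230842, plus strand), was at 56.2, 68.8, 92.1, 80.4 and 76.4 CPM in controls and 429, 446, 532, 659.8 and 362 with CLA, with no overlap and a rise of 2.70 ± 0.20. Genes that most cell types use also rose, such as Arpc2 (0.79 ± 0.07) and Cfl1 (1.02 ± 0.07), beside the leukocyte genes Dock2 (2.01 ± 0.28) and Vav1 (1.75 ± 0.27). Of 18 proteasome genes 16 rose, with a median of 0.41. Psmb5, a catalytic subunit, was at 18.6, 20.4, 17.9, 18.1 and 18.7 CPM in controls and 30.6, 34.2, 32.8, 33.3 and 37.6 with CLA, and all CLA libraries were higher.

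Stress genes rose in several lists. In the integrated stress response, a slowdown of translation lets the factor ATF4 act on genes for amino acid supply and redox balance. Of 20 genes, 13 rose and 2 fell (median 0.74). Atf3, a transcription factor gene (chromosome 1, 191170296 to 191218039, minus strand), was at 3.81, 6.23, 4.56, 11.0 and 6.33 CPM in controls and 79.7, 96.6, 102, 109.7 and 74.9 with CLA, and the lowest CLA library was several times the highest control. Its rise was 3.85 ± 0.27 (adjusted p = 6.47e-09). Trib3 rose by 1.73 ± 0.15, Mthfd2, a mitochondrial folate enzyme, by 1.43 ± 0.17, and Ppp1r15a, which ends the response, by 1.22 ± 0.10.

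The amino acid genes of this list did not move together. Slc7a11, the cystine importer, was at 3.93, 4.69, 3.84, 2.65 and 2.45 CPM in controls and 8.93, 6.18, 7.78, 7.15 and 8.12 with CLA, a rise of 1.12 ± 0.18 with no overlap. Asns, asparagine synthetase and a classic ATF4 target, was at 56.1, 40.9, 51.0, 50.2 and 57.9 CPM against 48.8, 58.2, 52.4, 44.8 and 58.5, so the groups overlapped and it was not called (0.04 ± 0.10, adjusted p = 0.791). Phgdh, the first enzyme of serine synthesis, fell (−0.71 ± 0.12), as did the lipoprotein receptor gene Vldlr (−0.70 ± 0.11).

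Both strands of the 250 bases before the start were searched for TGATGNAAN, the ATF4 and C/EBP composite element. Of 19 list genes with a RefSeq promoter, 6 held it. Of these, 4 are shown with up to 45 bases on each side, stopping at the start site, and with the element in capitals, to set 2 genes that rose beside 1 that was not called and 1 that fell. Coordinates are GRCm38.p6, with Atf3 (chr1:191183391-191183489), Slc7a11 (chr3:50443614-50443706) and Asns (chr6:7693210-7693277) on the minus strand and Vldlr (chr19:27216774-27216872) on the plus strand.
Atf3: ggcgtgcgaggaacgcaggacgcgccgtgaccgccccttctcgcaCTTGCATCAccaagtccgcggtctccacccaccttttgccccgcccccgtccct
Slc7a11: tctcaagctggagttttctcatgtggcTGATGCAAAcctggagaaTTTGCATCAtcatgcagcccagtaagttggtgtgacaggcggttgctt
Asns: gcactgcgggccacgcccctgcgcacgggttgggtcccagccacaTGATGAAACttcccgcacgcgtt
Vldlr: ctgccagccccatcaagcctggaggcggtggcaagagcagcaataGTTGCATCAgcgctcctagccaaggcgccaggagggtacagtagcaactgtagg
Slc7a11 held 2 copies and the others 1. Chac1 (0.76 ± 0.60, adjusted p = 0.318) and Nupr1 (0.02 ± 0.11) held it too and were not called with all libraries. Without control replicate 2, Chac1 was called at 1.86 (adjusted p = 0.00423), and it was also called on RPKM values (1.57, adjusted p = 0.0211). The element was in 3.89% of all promoters, and of 311 tested genes with it 28.0% rose and 21.5% fell.

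Chaperones of the endoplasmic reticulum rose in 12 of 14 cases (median 0.62). Hspa5, the chaperone BiP (chromosome 2, 34771970 to 34777547, plus strand), was at 446, 503, 429.6, 432 and 441 CPM in controls and 1067, 983, 1074, 807 and 679 with CLA, with no overlap and a rise of 1.03 ± 0.13. Sdf2l1 rose by 1.37 ± 0.20 and Manf by 0.87 ± 0.15, while Xbp1 (0.04 ± 0.09) and Herpud1 (−0.09 ± 0.11) did not pass the test. The count was 7 within animals 114 to 118. Heat shock genes of the cytosol rose in 7 of 8 cases, with Hsp90aa1 at 1.52 ± 0.12 and the small heat shock gene Hspb1 at 1.11 ± 0.26. Hspa1a (1.22 ± 0.35) and Hspa1b (1.0 ± 0.44) are near-identical, so reads may be split between them. Hspa1b was not called with all libraries and was called without control replicate 2 (1.56, adjusted p = 0.00329). Within animals 26 to 34, 4 heat shock genes were called.

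Antioxidant genes of the factor NRF2 split. Of 16, 9 rose and 3 fell. Srxn1, sulfiredoxin (chromosome 2, 152105516 to 152111376, plus strand), was at 33.9, 33.3, 40.0, 40.9 and 40.6 CPM in controls and 189, 193, 223, 146 and 194 with CLA, a rise of 2.33 ± 0.11 (adjusted p = 3.81e-11). Prdx1, its peroxiredoxin partner, was at 214, 205, 206, 216 and 236 CPM against 417, 411, 419, 443 and 458, and both genes had groups far apart. Gclm (0.87 ± 0.11), Txnrd1 (0.70 ± 0.07) and the ferritin gene Ftl1 (1.58 ± 0.10) also rose. Gsta3 (−0.96 ± 0.21), Gstm1 (−0.67 ± 0.09) and the catalase gene Cat (−0.66 ± 0.08) fell. Nqo1, a common reporter of NRF2, rose by 0.43 ± 0.15, and its call was lost without any 1 of control replicates 1, 2 and 3 and under upper-quartile scaling.

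Of 13 list genes with a promoter, 4 held the NRF2 element TGACNNNGC on one strand or the other. They were Gclm, Txnrd1 and Prdx1, which rose, and Gsta3, which fell. The Prdx1 element, 124 bases before the start, is shown with 45 bases on each side, on the plus strand (chr4:116685421-116685519, GRCm38.p6), in capitals as read from the other strand.
Prdx1: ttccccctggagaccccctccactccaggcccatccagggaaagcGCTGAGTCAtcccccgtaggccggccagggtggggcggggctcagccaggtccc
This element was common, in 11.5% of all promoters, and of 1700 tested genes with it 28.4% rose and 23.3% fell.

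Immediate early genes, which cells switch on within minutes of a stimulus, rose in 10 of 15 cases and none fell. Fosl1 was at 7.08, 6.83, 6.35, 7.43 and 7.13 CPM in controls and 28.3, 28.5, 38.5, 17.6 and 26.5 with CLA, with no overlap and a rise of 2.0 ± 0.17. Egr2, also a macrophage factor, rose by 2.99 ± 0.41, Fos by 2.58 ± 0.40 and Myc by 1.38 ± 0.18. Egr1 (0.91 ± 0.42) and Dusp1 (0.13 ± 0.23) did not pass the test, though Egr1 did on RPKM values (adjusted p = 0.0462). Of 9 p53 targets, Mdm2 (0.65 ± 0.04), Bax (0.75 ± 0.08) and Aen (0.30 ± 0.10) rose and 3 fell. The Aen call was lost without control replicates 4 or 5 or CLA replicate 1, while Cdkn1a, the cell cycle inhibitor, was at 0.29 ± 0.28.

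**Figure D3:**
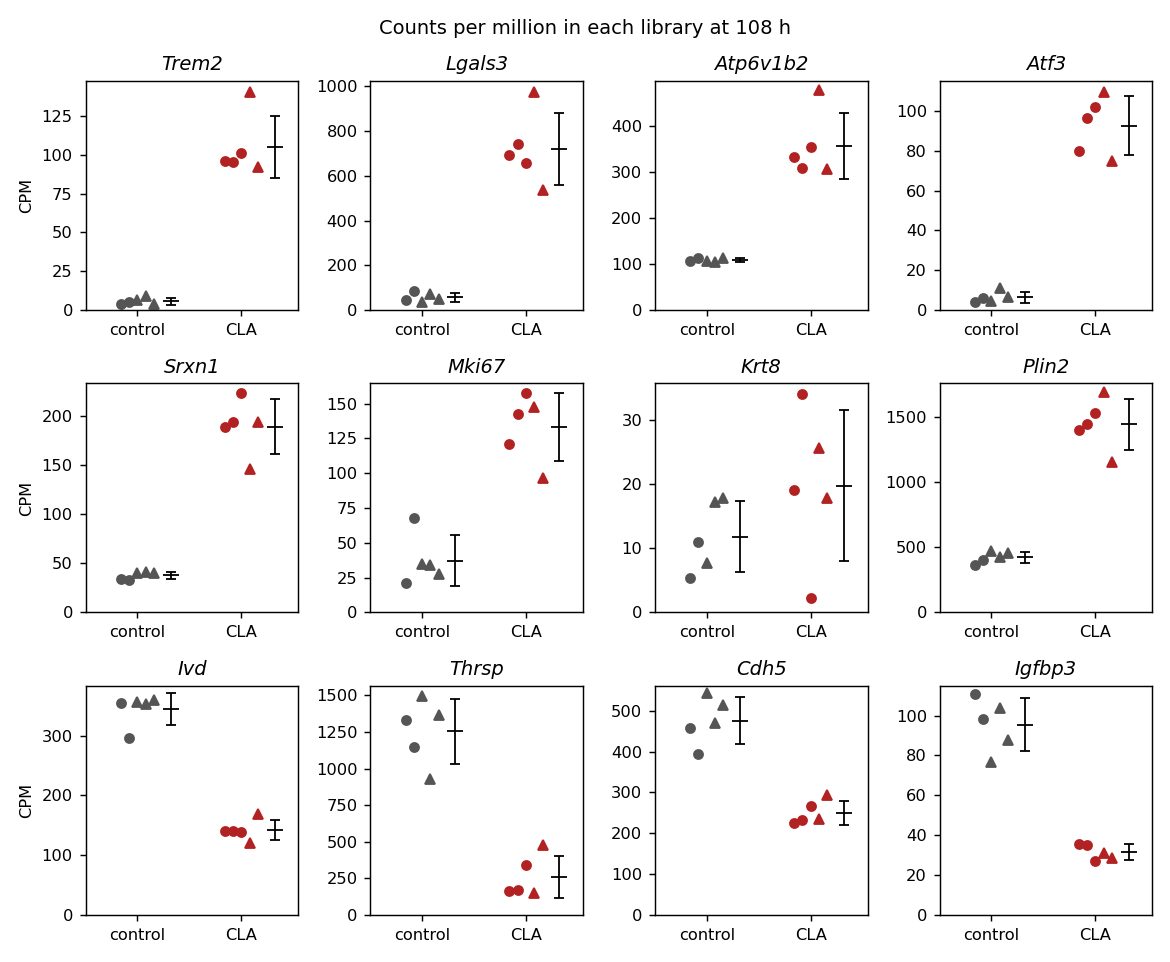
CPM of 12 genes in each of the 10 libraries, linear axes from 0, with controls in grey and CLA in red, circles for animals 26 to 34 and triangles for animals 114 to 118, and bars for mean ± SD (n = 5). In 11 of the 12 genes the groups do not overlap, and in the luminal keratin gene Krt8 they do, with 1 CLA library at 2.25 CPM. The genes were chosen with earlier results known, so this count is no further support. Over all genes tested, 17.9% had all CLA libraries above all controls and 14.2% had all below.

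Genes of the fat cell fell from identity to enzymes. Of 17 identity and adipokine genes, 16 fell and none rose (median −0.90). Slc2a4, the insulin-regulated glucose transporter GLUT4, was at 306, 243, 325, 238 and 296 CPM in controls and 78.1, 86.3, 117, 74.3 and 139 with CLA. Every CLA library was below every control, and it fell by 1.51 ± 0.24 (adjusted p = 4.3e-05). The master factors Pparg and Cebpa fell by 0.48 ± 0.12 and 0.64 ± 0.10, and the glucocorticoid-regulated factor gene Klf15 by 1.37 ± 0.17. The one not called was Fabp4 (−0.15 ± 0.09), a fatty acid carrier that macrophages also make. The leptin gene Lep fell by 1.11 ± 0.33 and was not called within either run of animal numbers alone.

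Most fat synthesis genes fell. Of 14, 13 fell (median −0.97), and of 8 genes of triglyceride synthesis 6 fell (median −0.61). Thrsp, a regulator of lipogenesis (chromosome 7, 97412938 to 97417730, minus strand), was at 1331, 1145, 1495, 930.3 and 1363 CPM in controls and 166, 169, 344, 153 and 477 with CLA. CLA replicates 3 and 5 were higher than the other CLA libraries but below all controls, and the fall was 2.26 ± 0.38. Elovl6, which lengthens fatty acids, fell by 1.93 ± 0.35, Acaca by 1.72 ± 0.30 and the last enzyme of triglyceride synthesis, Dgat2, by 1.57 ± 0.26. Without the libraries above 1.5 in skin and hair genes, 3 triglyceride genes were called.

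Coats of lipid droplets went both ways. Plin2, the droplet coat of cells other than mature fat cells (chromosome 4, 86648386 to 86670060, minus strand), was at 361, 402, 469, 423 and 456 CPM in controls and 1397, 1445, 1531, 1688 and 1154 with CLA, a rise of 1.77 ± 0.15 with no overlap. Hilpda, an inhibitor of the main triglyceride lipase, rose by 1.64 ± 0.17. The other calls, 8 of 13 tested, were falls, among them Plin4 (−0.91 ± 0.11), Cidea (−0.88 ± 0.14) and Mgll (−0.51 ± 0.07).

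Of 18 fatty acid oxidation genes, 17 fell (median −0.47) and 1 rose, and within animals 26 to 34 9 were called lower. The gene that rose, Cpt1a, encodes the liver form of the enzyme at the gate of the mitochondrion (chromosome 19, 3322334 to 3385733, plus strand). It was at 56.7, 79.7, 72.7, 81.9 and 68.9 CPM in controls and 154, 167, 188, 204 and 139.7 with CLA (rise 1.24 ± 0.14). The muscle form Cpt1b fell by 0.56 ± 0.17, a call lost without the libraries above 1.5 in skin and hair genes (adjusted p = 0.111). Targets of the peroxisome proliferator receptors did not move as a group: of 12, Fgf21 and Ucp2 (1.48 ± 0.11) rose and Ucp3 (−1.21 ± 0.13) and Fabp3 (−1.01 ± 0.23) fell. Angptl4 (0.07 ± 0.22) and Pdk4 (−0.36 ± 0.32) did not pass the test. Fgf21, a metabolic hormone gene that stress also induces (chromosome 7, 45613886 to 45615490, minus strand), was at 0.208, 0.192, 0.228, 0.313 and 0.144 CPM in controls and 2.93, 4.75, 5.60, 2.58 and 3.88 with CLA (rise 4.15 ± 0.43).

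Breakdown of branched-chain amino acids, which mature fat cells use to make fatty acids, had 11 of 12 genes lower and a median of −0.80. Ivd, an enzyme of leucine breakdown (chromosome 2, 118861954 to 118882909, plus strand), was at 354, 296, 356, 354 and 359 CPM in controls and 141, 141, 139, 121 and 169 with CLA. The groups were far apart, and the fall was 1.28 ± 0.08 (adjusted p = 1.31e-09). Acadsb fell by 1.07 ± 0.10, Bckdha by 0.84 ± 0.07 and Mccc2 by 0.87 ± 0.08, while Bckdhb was at −0.11 ± 0.05 and was not called with all libraries; of the runs that left out 1 library, the one without control replicate 2 called it (−0.14).

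Respiratory chain genes fell with smaller medians, whether encoded in the nucleus (19 of 20, median −0.41) or in mitochondrial DNA (10 of 13, median −0.56). Sdha, the flavoprotein of complex II (chromosome 13, 74322254 to 74350280, minus strand), was at 886, 665, 800.2, 781 and 781 CPM in controls and 507, 474, 574, 474 and 475 with CLA, with no overlap and a fall of 0.64 ± 0.09. The mitochondrial gene mt-Cytb fell by 0.62 ± 0.11. Within animals 26 to 34, 10 nuclear genes were called lower, and within 114 to 118, 3 mitochondrial genes. Of 11 brown and beige fat genes, 4 fell, with Cox8b at −0.75 ± 0.13, and Tmem26, a beige fat marker, rose (1.38 ± 0.27). Without the libraries above 1.5 in skin and hair genes, 1 was called lower.

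Genes of insulin action fell in 8 of 12 cases (median −0.49). The receptor gene Insr fell by 0.47 ± 0.07, Pik3r1, a subunit of the lipid kinase below it, by 0.85 ± 0.14, and Pde3b, which insulin uses to stop lipolysis, by 0.76 ± 0.11. Slc2a1, the glucose transporter of most cells, rose by 0.82 ± 0.13, opposite to Slc2a4. Of 11 glycolysis genes, 4 rose, by at most 0.57 (Tpi1), and Pfkl fell (−0.38 ± 0.15). The Pfkl call was lost without any 1 of 8 libraries.

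Sterol genes showed no common direction. Of 15 genes of synthesis and uptake, 4 rose and 3 fell, among them Fdft1 (−0.89 ± 0.16). In cholesterol efflux, Abcg1, a pump of macrophages (chromosome 17, 31057675 to 31117988, plus strand), was at 21.1, 22.6, 21.7, 26.2 and 25.1 CPM in controls and 88.4, 95.8, 85.8, 154 and 92.1 with CLA, a rise of 2.14 ± 0.15. Its relative Abca1 fell by 0.38 ± 0.10, and Apoe, the lipoprotein that takes up the sterol, by 0.56 ± 0.20. Apoe was at 2438, 2615, 2436, 1915 and 1835 CPM in controls and 1851, 1064, 2437, 989 and 1279 with CLA, and its groups overlapped, with the call lost without any 1 of 6 libraries. Soat1, which stores cholesterol as ester, rose by 1.94 ± 0.25.

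**Figure D4:**
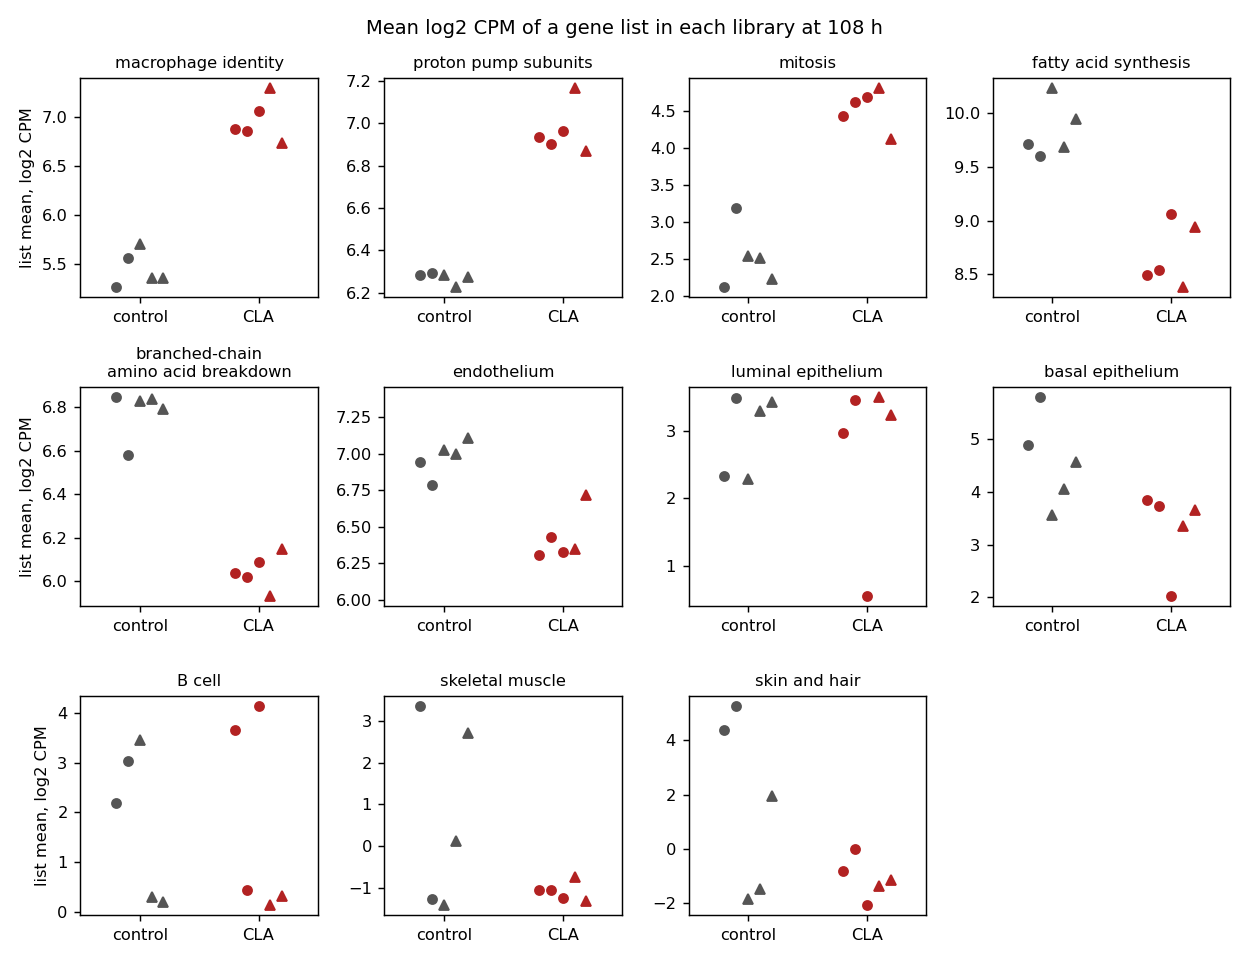
Mean log2 CPM of 11 gene lists in each library, with controls in grey and CLA in red, circles for animals 26 to 34 and triangles for animals 114 to 118. Macrophage, proton pump and mitosis means are higher in all 5 CLA libraries than in all 5 controls, fat synthesis, branched-chain breakdown and endothelium means are lower in all 5, and the luminal mean overlaps.

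Cell division genes rose without exception among those tested, 18 of 18 of mitosis (median 2.02) and 17 of 17 of DNA replication (median 1.28). Mki67, a marker of cycling cells (chromosome 7, 135689784 to 135716361, minus strand), was at 21.3, 68.1, 34.9, 34.0 and 27.8 CPM in controls and 121, 142, 158, 148 and 96.5 with CLA. Control replicate 2 was the highest control but lay below every CLA library, and the rise was 1.84 ± 0.33 (adjusted p = 0.000168). Mcm6, a helicase subunit loaded at origins, was at 8.06, 18.2, 12.5, 10.8 and 12.3 CPM against 44.5, 51.0, 56.1, 64.6 and 34.5, with no overlap. Birc5, survivin, rose by 2.60 ± 0.30, Ccnb1 by 2.34 ± 0.36 and Cdt1 by 1.93 ± 0.24. Within animals 26 to 34, where control replicate 2 is 1 of 2 controls, Mki67 was at 1.65 (adjusted p = 0.0984).

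Luminal epithelium did not rise with them. Of 19 luminal genes none rose and 1 fell (Kit, also a mast cell gene), with a median of −0.03. Krt8, the keratin of luminal cells (chromosome 15, 101996698 to 102004482, minus strand), was at 5.35, 11.0, 7.75, 17.2 and 17.9 CPM in controls and 19.1, 34.1, 2.25, 25.6 and 17.8 with CLA. The groups overlapped (0.74 ± 0.65, adjusted p = 0.37), and the standard error allows differences of either sign. CLA replicate 3 had the lowest luminal list mean (0.55, against 2.97 to 3.49 in the other CLA libraries and 2.29 to 3.48 in controls). Its mitosis list mean was 4.69, within the 4.12 to 4.80 of the other CLA libraries and above the controls (2.12 to 3.18). The part of the epithelium in the division result was not tested further.

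Of 12 basal genes 7 fell, and 3 without the libraries above 1.5 in skin and hair genes, a signal that includes keratins shared with the basal layer. Krt17 was at −4.92 with all libraries and 0.15 without those. Itga6, an integrin of basal cells, was at −0.48 ± 0.09.

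Of 10 genes of the estrogen and progesterone receptor axis, 2 rose and 1 fell. Pgr, the progesterone receptor gene that estrogen induces, was at 1.04, 2.49, 2.05, 3.76 and 3.17 CPM in controls and 2.06, 3.04, 0.214, 3.83 and 2.22 with CLA, with overlap (−0.15 ± 0.52, adjusted p = 0.838). Esr1 was at −0.26 ± 0.11 (adjusted p = 0.0572, and 0.0305 by DESeq2; it was called without control replicate 2 or CLA replicates 4 or 5), and Greb1 at 0.61 ± 0.35. Cited1, a co-regulator of the estrogen receptor, rose by 1.58 ± 0.48, from 4.28, 8.52, 5.99, 16.3 and 13.4 CPM in controls to 35.1, 44.1, 10.6, 28.4 and 27.3. CLA replicate 3, the one low in luminal genes, lay within the range of the controls, and the call was lost without the libraries above 1.5 in skin and hair genes (adjusted p = 0.137). Calca rose by 1.44 ± 0.52 and Wnt4 fell by 2.04 ± 0.75, and both calls were lost without any 1 of 4 libraries. Wnt4 was at −0.25 (adjusted p = 0.837) without the libraries above 1.5 in skin and hair genes. Milk protein genes were mostly too low to test: 3 of 9 passed the filter, and Folr1 rose (1.10 ± 0.34), a call also lost without the libraries above 1.5.

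Growth factor genes moved one by one. Of 11 genes for epidermal growth factor ligands and receptors, Egfr (0.64 ± 0.18) and Hbegf (0.41 ± 0.16) rose and Tgfa (−0.95 ± 0.38), Egf (−0.48 ± 0.16) and Erbb2 (−0.42 ± 0.17) fell. Areg, the ligand that relays estrogen, was at 0.85 ± 0.93 and did not pass the test. The call of Egf was lost without control replicate 4, and those of Hbegf, Tgfa and Erbb2 without any 1 of 7, 7 and 6 libraries. Tgfa was at −0.05 (adjusted p = 0.910) and Erbb2 at −0.11 (adjusted p = 0.651) without the libraries above 1.5 in skin and hair genes. Fgf10, a ligand that stroma makes for epithelium (chromosome 13, 118669791 to 118792115, plus strand), was at 90.7, 65.2, 85.8, 104 and 74.7 CPM in controls and 163, 158, 157, 171 and 135 with CLA, and rose by 0.90 ± 0.15 with no overlap. Etv5, a transcription factor gene switched on by these receptors, was at 11.5, 11.8, 14.8, 13.5 and 11.3 CPM against 25.4, 25.9, 30.8, 30.5 and 23.2, a rise of 1.11 ± 0.11. The receptor gene Fgfr1 (−0.05 ± 0.06) was not called, and Fgfr3 fell (−1.12 ± 0.35), a call lost without control replicate 2. Fgfr3 was at −0.25 (adjusted p = 0.457) without the libraries above 1.5 in skin and hair genes.

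The insulin-like growth factor axis was lower, with 7 of 12 genes falling. Igf1 fell by 0.39 ± 0.10, Igf2 by 0.83 ± 0.11 and the growth hormone receptor gene Ghr by 0.74 ± 0.13. Igfbp3, the main carrier of these factors in blood (chromosome 11, 7206086 to 7213923, minus strand), was at 111, 98.3, 76.6, 104 and 87.9 CPM in controls and 35.8, 35.3, 27.3, 31.3 and 28.4 with CLA. Its highest CLA library was below its lowest control, and it fell by 1.60 ± 0.14. The clearance receptor gene Igf2r rose (0.51 ± 0.11), a call lost without the libraries above 1.5 in skin and hair genes.

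Of 16 Wnt genes 10 fell and none rose, and 4 fell without the libraries above 1.5 in skin and hair genes. Axin2, a feedback gene of Wnt signalling (chromosome 11, 108920349 to 108950783, plus strand), was at 45.9, 33.8, 37.0, 27.8 and 22.9 CPM in controls and 17.1, 16.2, 22.7, 11.9 and 16.8 with CLA, close to but not overlapping, and fell by 0.98 ± 0.20. Lef1, a nuclear effector that hair follicles also use, was at 3.69, 24.8, 0.749, 0.769 and 3.24 CPM in controls, with control replicate 2 far above the rest, and 1.57, 1.22, 1.05, 0.746 and 1.59 with CLA, so the groups overlapped (−2.43 ± 0.85, adjusted p = 0.025). The Lef1 call was lost without control replicate 2 or CLA replicates 3 or 4. Wnt5a (−0.81 ± 0.13) and the Wnt antagonists Sfrp5 (−1.07 ± 0.26) and Dkk2 (−0.79 ± 0.19) fell.

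Stromal matrix genes changed little in their bulk members. Of 10 fibroblast genes, Pdgfra (0.56 ± 0.11) and the proteoglycan gene Lum (0.53 ± 0.11) rose and Cd34 fell (−0.32 ± 0.10), a call lost without control replicate 3 (adjusted p = 0.0635). Col1a1 was at 0.18 ± 0.11 and Col3a1 at 0.18 ± 0.11, neither called, though Col3a1 was called on RPKM values (0.26, adjusted p = 0.0416). Of 17 collagen and cross-linking genes 9 rose and 3 fell. The collagen counts moved with the processing: 2 rose and 3 fell without the libraries above 1.5 in skin and hair genes, 10 and 0 within animals 26 to 34, and 0 and 2 within 114 to 118. Col18a1, whose cleavage gives endostatin, was at 108, 110.4, 139.9, 142 and 115 CPM in controls and 204, 295, 270.2, 252 and 143 with CLA, and rose by 0.92 ± 0.14.

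Matrix proteases and their inhibitors shifted in composition. Of 16, 7 rose and 4 fell. Mmp13, a collagenase, was at 0.744, 0.128, 0.944, 0.598 and 0.900 CPM in controls and 3.42, 3.54, 4.56, 3.83 and 2.75 with CLA, and Timp1, an inhibitor, at 2.08, 2.52, 2.57, 2.14 and 3.31 against 15.4, 12.2, 11.0, 8.68 and 5.43. Neither gene's groups overlapped, and the rises were 2.45 ± 0.43 and 2.06 ± 0.51. The Timp1 call was lost without the libraries above 1.5 in skin and hair genes (adjusted p = 0.0511). The membrane protease gene Adam8 rose by 4.03 ± 0.49 and Mmp19 by 1.71 ± 0.19. Timp4 fell by 1.36 ± 0.17, Timp3 by 0.55 ± 0.17 and Mmp15 by 0.88 ± 0.11, while Mmp2 (0.02 ± 0.09) was not called. Among matricellular genes, Cyr61 (1.56 ± 0.21) and Tnc (0.81 ± 0.18) rose and Prelp fell (−0.89 ± 0.13).

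Blood vessel genes fell. Of 16 endothelial genes 14 fell and none rose (median −0.53). Cdh5, the junction protein of endothelium (chromosome 8, 104101625 to 104144511, plus strand), was at 457, 393, 544, 471 and 513 CPM in controls and 224, 232, 266, 235 and 294 with CLA, with no overlap and a fall of 0.93 ± 0.09 (adjusted p = 6.51e-08). Kdr, the main VEGF receptor gene, fell by 1.02 ± 0.12, and Vwf was at 0.02 ± 0.16. The ligands Vegfa (−0.78 ± 0.13), Vegfb (−0.79 ± 0.07), Pgf (−1.06 ± 0.18) and Angpt1 fell. Angpt1, which pericytes and fat pad cells make to steady vessels (chromosome 15, 42424723 to 42676977, minus strand), was at 48.4, 36.7, 47.9, 48.5 and 39.0 CPM in controls and 14.3, 12.8, 15.5, 17.5 and 25.7 with CLA (fall 1.36 ± 0.18). CLA replicate 5 was the highest CLA library for Angpt1 and also had the highest endothelial list mean with CLA (6.72, against 6.30 to 6.43 in the others).

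Of 9 pericyte and smooth muscle genes 7 fell (median −0.58). Rgs5, a pericyte marker (chromosome 1, 169655501 to 169695813, plus strand), was at 449, 392, 550.0, 464 and 483 CPM in controls and 220.2, 196, 232, 232 and 269.7 with CLA, a fall of 1.02 ± 0.08. Contractile genes shared with myoepithelium, Acta2 (−0.13 ± 0.18) and Tagln (−0.11 ± 0.16), were not called. Within animals 26 to 34, 2 of the list were called lower. Of 4 tested lymphatic genes, Lyve1, which some macrophages also carry, rose (0.71 ± 0.18) and Flt4 (−0.76 ± 0.11) and Prox1 (−0.44 ± 0.17) fell. The Lyve1 call was lost without the libraries above 1.5 in skin and hair genes (adjusted p = 0.0678) and the Prox1 call without any 1 of 8 libraries.

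Of 15 clock genes 4 fell and none rose. The share that fell, 26.7%, was close to the 23% of all genes. Hlf, an output factor gene of the clock (chromosome 11, 90336536 to 90390895, minus strand), was at 44.9, 26.4, 21.8, 22.5 and 19.8 CPM in controls and 11.5, 10.9, 10.1, 8.85 and 11.8 with CLA, and fell by 1.35 ± 0.19 with no overlap. Nr1d1 (−0.47 ± 0.28) and Per2 (−0.01 ± 0.40) did not pass the test. Of 7 Schwann cell genes and 5 red blood cell genes, edgeR called 0, with 0 in each list at an unadjusted p under 0.05, and DESeq2 called 0. Without control replicate 2, 4 red blood cell genes (Hba-a1, Hba-a2, Hbb-bs and Alas2) were called lower. Skin and hair genes fell in 11 of 14 cases and skeletal muscle genes in 7 of 9, and both counts were 0 without the libraries above 1.5 in skin and hair genes.

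The same contrast in the separate mice sampled at 132 h, which have their own controls, called 9613 of 17180 genes (56%), 27% higher and 29% lower. Of the 8261 genes called at 108 h, 6908 were called in the same direction at 132 h, 83.6% of the calls at 108 h and 71.9% of those at 132 h, and 1 in the opposite direction. The fit of the difference between the times called 0 of 17852 genes, with 2216 at an unadjusted p under 0.05, and DESeq2 called 130. The macrophage identity median was 1.40 at 108 h and 2.04 at 132 h, and that of fat synthesis −0.97 and −1.63. Interferon-induced genes had 1 call at 108 h and 13 at 132 h, with medians of 0.07 and 1.48, and the difference was called for none of them.

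Estrogen given in drinking water for 60 h, against its own controls, called 1119 of 17248 genes (6.49%), 4.07% higher and 2.42% lower. The CLA effect at 108 h differed from the estrogen effect in 5532 genes (32.1%), 2964 with a higher value for CLA (17.2%) and 2568 with a lower one (14.9%). That balance also depended on the scaling, with 2126 higher and 3544 lower under upper-quartile scaling, 2748 and 2752 under RLE scaling and 2961 and 2962 by DESeq2. Agent and time differ together in this comparison. The run of animal numbers differs too: the estrogen mice had numbers 148 to 164, and their controls 11 and 78 to 82. The estrogen effect and the run therefore cannot be told apart. Mitosis genes rose in both, 18 of 18 with CLA and 17 with estrogen, and the difference was called for 5, all with a larger rise under CLA. Mki67 rose by 1.84 ± 0.33 with CLA and was at 1.15 ± 0.33 with estrogen, a difference of 0.68 ± 0.45 (adjusted p = 0.268). Luminal genes rose in 14 of 19 cases with estrogen and in none with CLA, and the difference was called for 12, all lower for CLA. Pgr was at −0.15 with CLA and 4.50 ± 0.57 with estrogen (difference −4.65 ± 0.75, adjusted p = 0.000185). Of the macrophage identity genes, 11 of 14 were called with a higher value for CLA.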

How the data were processed

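RNA from 40 mammary glands in 8 groups of 5 was sequenced as stranded poly(A) libraries after 10 PCR cycles, per the labels' protocols, which call the 5 of a group biological replicates. The authors deposited raw read counts per gene, and RPKM values (reads scaled by gene length and library size, made by the authors from the same libraries), for 47729 genes. Per the submitters' processing notes the build was GRCm38. No source used here names the aligner or counter, so near-identical, overlapping and antisense genes are uncertain. Itgam, Flg and Ccl21a were not analysed here.

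Counts of the 20 early libraries were filtered (filterByExpr, minimum count 10, minimum total 15), scaled by TMM and fitted with edgeR 4.0.16 in R 4.3.3 (robust quasi-likelihood, Benjamini-Hochberg adjusted p under 0.05), and every adjusted p in the text is from this test unless another tool or group of libraries is named. The SE is the log2 fold change over the root of F. The 132 h contrast came from the late libraries alone, and the difference between times from all 40. RPKM values, tested with limma 3.58.1 after adding 0.1 or 1, and DESeq2 1.42.0 were alternatives. Tested on simulated data, 45 and 46 of 50 genes set 1 log2 unit lower and higher were called among 17017. Of the genes left unchanged, 10 were called. The changed genes all had an average log2 CPM above 1 and were few, unlike the broad changes here. The simulation therefore does not show recovery for low genes or under such broad changes. No 2 libraries agreed within counting noise.

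The members, gene lists and tests were chosen with earlier results of these data known. Genes were named as the 12 largest changes each way among non-overlapping genes at a mean log2 CPM of at least 1, the 4 smallest p-values and every opposite call in each list, a fixed panel, and the 5 largest differences each way from estrogen. Further list members, and the promoters of Slc7a11, Asns and Vldlr, were chosen after their values were seen. Gene positions are from GENCODE, and promoters are from RefSeq (GRCm38.p6).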

Additional observations from a re-analysis of the deposited data

Results flagged for a closer look

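Of 228 groups of 5 values checked, 19 (8.33%) held a library far from the other 4 (Dixon's criterion, which chance meets in about 1 in 20 groups). CLA replicate 3 had the lowest list means with CLA for luminal epithelium (0.55 log2 CPM), basal epithelium (2.02) and the hormone receptor axis (0.93), and stood apart for sterol genes (5.71). CLA replicate 4 stood highest for lipid-associated macrophage genes (8.15), Trem2 (141 CPM), Atp6v1b2 (480.1 CPM) and Abcg1 (154 CPM), and all 4 other CLA libraries were still above every control for these 3 genes. CLA replicate 5 was lowest for chaperones of the endoplasmic reticulum (6.95). Among controls, replicate 3 stood apart for complement (6.60) and brown fat genes (4.94), replicate 4 for the proton pump (6.23) and Tm4sf19 (0.940 CPM), and replicate 1 for mitochondrial genes (8.67) and Hlf (44.9 CPM). Control replicate 2 stood apart for branched-chain breakdown (6.58), Ivd (296 CPM), Hspa5 (503 CPM) and Lef1 (24.8 CPM).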

How the results depend on the processing

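No paired analysis was possible because replicate numbers were given in accession order and the labels pair no mice between groups. The count of 8261 changed genes stayed between 6365 and 8550 under 2 other scalings, 2 other filters, DESeq2, RPKM values, a term for the run of animal numbers and removal of libraries high in skin and hair genes, the last partly chosen after seeing the data, and between 7637 and 8367 with each library left out in turn. With fewer samples, it was 4643 (2559 higher, 2084 lower) within animals 26 to 34 and 4654 (2553 higher, 2101 lower) within animals 114 to 118. The count of genes whose effect differed between 132 and 108 h, 0, was 2 without a filter, 3 with a stricter one, 4 with only the groups compared, 130 by DESeq2 and 0 to 137 with a library left out (137 without CLA replicate 4 and 1 without control replicate 2). The cause was not tested. Without the libraries above 1.5 log2 CPM in skin and hair genes, the direction reversed for Krt17 (0.15), Dsg3 (0.31), Krt28 (0.91), Krt25 (1.95), Krt71 (2.39), Gjb2 (0.060) and Lef1 (0.69). None of these was called there, with adjusted p from 0.198 (Lef1) to 0.960 (Gjb2), and the SE of Krt71 was 1.74. Tgfa was at 0.021 without the 2 controls highest in them and at 0.19 within animals 114 to 118, and Col4a1 (0.13) and Col4a2 (0.090) reversed within animals 26 to 34. Low genes such as Il10, under 2 CPM, rest on few reads. A set of 194 genes described above and called with all libraries was followed. Of these, 38 lost the call within animals 26 to 34, 37 within animals 114 to 118 and 13 on RPKM values with 0.1 added.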

Other observations

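Arg1, the arginase gene of alternatively activated macrophages, was at 6.99, 33.7, 44.8, 1.79 and 2.02 CPM in the 5 controls and 73.7, 4.04, 188, 2.98 and 2.39 CPM in the 5 CLA libraries (1.61 ± 1.34, adjusted p = 0.346), so the spread within each group was wider than the difference between them. The B cell list mean was 0.19 to 3.46 in controls and 0.14 to 4.13 with CLA, and the same 3 controls and 2 CLA libraries were highest in both.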
